A study of Mus musculus with 8 samples.

Results

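The lactating mammary gland gave 2 small clusters of cells that carried few keratin transcripts: C15, which the study named for its Procr-positive cells and placed with the basal epithelium, and C18, which it set aside as fibroblasts. The study also reported some pericyte markers in C15 and did not exclude that its cells are non-epithelial. C15 cells were compared with C18 cells of the same mice to see which genes of C15 belong to mural cells and which it shares with the stroma. The cells were those that carry the authors' cluster label C15 or C18 and pass all their quality flags in the 2 libraries of day 6 of lactation (L). There were 262 C15 cells (205 in mouse 1 and 57 in mouse 2) and 336 C18 cells (284 and 52), that is 598 of 9319 clustered cells of this stage and of 25009 in the series. Nearly all C15 cells came from lactation, with 262 of 265 over all stages. Of the 529 C18 cells, 336 came from lactation and the rest from the other stages.

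The series holds single-cell libraries of 8 C57BL/6N mice, with 2 mice each at 8 weeks of age without pregnancy (NP), at day 14.5 of gestation (G), at day 6 of lactation (L) and 11 days after weaning (PI). Each library is 1 mouse, and the labels name no treatment or transgene for any of them. Mammary cells were stained for EpCAM, CD31, CD45 and Ter119 and sorted as EpCAM-positive, a gate meant to leave out blood, endothelial and stromal cells. Transcripts were tagged at their 3′ ends and counted by unique molecular identifiers (UMIs), so that each UMI stands for 1 captured molecule.

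Mural cells wrap the outside of blood vessels: pericytes lie along capillaries inside the basement membrane they share with the endothelium, and vascular smooth muscle cells ring the larger vessels and set their width by contracting. Fibroblasts lie free in the connective tissue and make its collagens, proteoglycans and elastic fibres. Both are mesenchymal. Basal (myoepithelial) cells, which squeeze milk from the alveoli, share a contractile apparatus with smooth muscle but make keratins.

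UMIs were summed over the cells of a cluster within each mouse, which gave 644131 and 224739 UMIs for C15 and 1267851 and 230681 UMIs for C18. Levels are given as CPM, the UMIs of a gene per 1e+06 UMIs of the sum, in mouse 1 and then in mouse 2. They are not divided by gene length, since transcripts were tagged at their ends. Median UMIs per cell were 2895 and 3683 in C15 and 4043.5 and 4015 in C18, and the median mitochondrial share of UMIs was 0.671% and 0.923% in C15 and 0.287% and 0.345% in C18. No C15 or C18 cell shared its barcode with a cell of another library, although 392 barcode sequences occurred in more than 1 library. Differences between the clusters are log2 fold changes, positive where C15 was higher. Their SE comes from edgeR's quasi-likelihood test on the 4 sums with the mouse as a block. It rests mainly on spread shared between genes (7.64 prior against 1 residual degrees of freedom) and is not the spread of the gene between the 2 mice alone. The authors drew the clusters from the same transcripts, so that a call says how far the clusters stand apart in these mice and is not independent evidence of a difference.

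C15 was first checked against its name. Krt14, a keratin of basal epithelium, stood at 297 and 276 CPM in C15, at 268 and 251 CPM in C18 and at 4878 and 5442 CPM in C14, the basal epithelial cluster of the same mice. The endothelial cluster C19 gave 303 and 319 CPM, so that C15, fibroblasts and endothelial cells held similar low levels of this keratin. Over 7 epithelial genes (Krt14, Krt17, Krt5, Krt15, Oxtr, Sfn and Krt8) the level per mouse was 2.34% to 10.7% of the C14 level in C15, 3.43% to 6.35% in C18 and 2.66% to 6.22% in C19. These ranges overlap, and the highest value in C15 was Krt5 in mouse 2, at 45 and 97.9 CPM in the 2 mice. In droplet data free RNA from lysed cells gives UMIs in cells that do not make a gene, and how much of these levels it supplies was not tested. Epcam, the sorting marker itself, had a UMI in 2.93% (exact 95% binomial interval 1.08 to 6.26) and 5.26% (1.10 to 14.6) of C15 cells, 5.28% and 3.85% of C18 cells and 36.5% and 48.8% of C14 cells. Of the basal epithelial markers 7 were tested between C15 and C18, and none was called in either direction (median log2 fold change 0.13, against -0.01 over all genes tested). Milk protein genes, 7 tested and none called, had a median of -0.12.

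In C15 the contractile genes did not follow the keratins. For Acta2, Tagln, Myh11, Myl9, Mylk, Tpm1, Tpm2 and Lmod1, the C15 level was 27.8% to 111% of the C14 level, with a median of 62.6%, whereas C18 stood at 1.97% to 7.45% and C19 at 3.68% to 9.23%. In C18 and C19 these percentages overlapped those of the epithelial genes, and in C15 they lay above them in both mice. In C17, a cluster whose immune markers summed to 41260 and 57751 CPM, the epithelial genes stood at 9.07% to 33.3% of C14 and the contractile genes at 6.28% to 31.0%, so that the 2 sets overlapped there as well, at a higher level in mouse 1 than in mouse 2. In mouse 1, Acta2 and Mylk were as high in C17 (28.4% and 31.0%) as in C15 (27.8% and 28.4%). Cnn1 and Actg2, also smooth muscle genes, lay at the level of the epithelial genes in C15, at 5.69% to 6.18% of the C14 level. Smtn, the actin-binding smoothelin, which is not among the 8, was at 23.4% and 35.9% of C14 in C15, 9.14% and 7.29% in C18, 20.0% and 14.9% in C19 and 35.6% and 11.3% in C17, and thus less distinct. The fold changes of contractile genes below compare C15 with that C18 level.

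**Figure D1:**
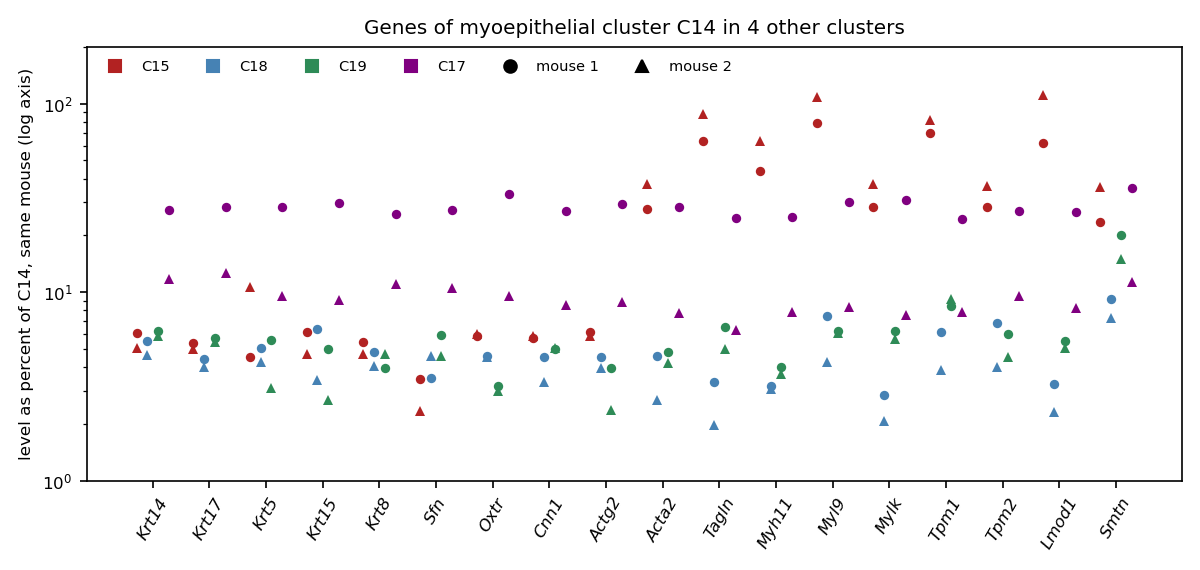
Levels of epithelial and contractile genes in C15, C18, C19 and C17 as a percentage of the level in basal cells (C14) of the same mouse, on a log axis, with 1 point per gene and mouse. In C15, C18 and C19 the epithelial genes sit at 2.34% to 10.7%, and in C17 at 9.07% to 33.3%. The 8 contractile genes of C15 sit at 27.8% to 111%, and Cnn1 and Actg2 at 5.69% to 6.18%.

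Across all genes, 5714 passed the filter on low counts. Of these, 994 (17.4%) were called higher in C15 and 1092 (19.1%) higher in C18 at an edgeR adjusted p under 0.05. These shares are the background for the counts of listed genes given below. For 1450 genes (25.4%), called or not, the 95% interval of the difference lay within a factor of 2 in either direction. All but 1 of the called genes moved the same way in both mice, the exception being Ifitm1, an interferon-induced membrane protein, at 166 and 40.05 CPM in C15 and 30.8 and 69.4 CPM in C18. DESeq2 on the same sums called far fewer, 390 higher in C15 and 435 higher in C18, and placed 69 genes within a factor of 2. With 2 mice an exact paired permutation test of a single gene cannot go below p = 0.5, so every call rests on the spread that edgeR shares between genes.

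**Figure D2:**
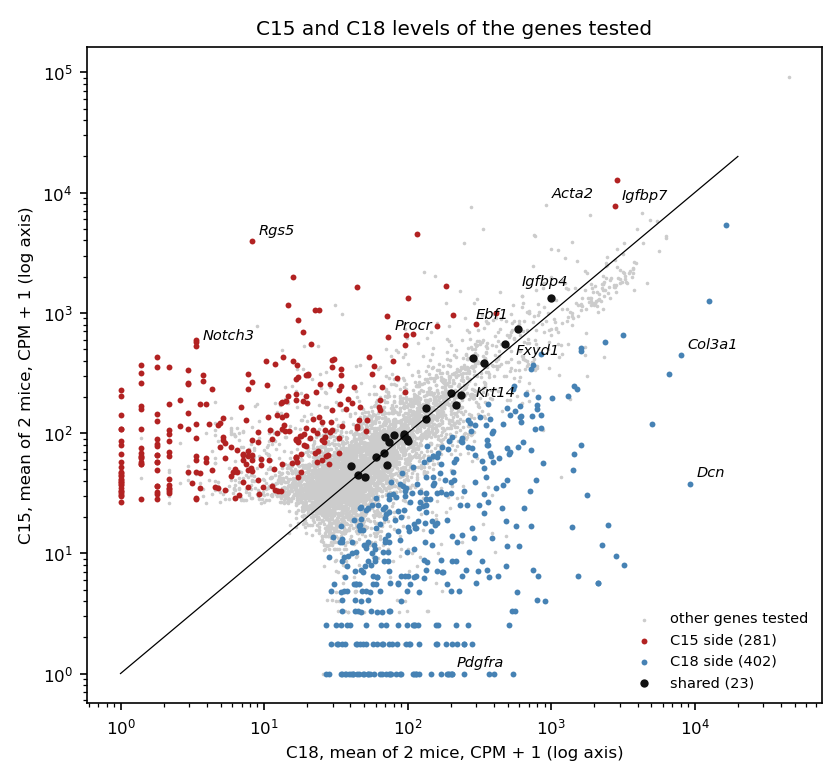
Mean level in C15 (vertical) against mean level in C18 (horizontal) for each gene tested, in CPM with 1 added on log axes, with 1 point per gene. Coloured points are genes on the C15 side (281), on the C18 side (402) and shared by both (23), each well above the basal cells by the level rule given with the shared genes, and the line marks equal levels. Mural genes such as Rgs5 (4288 and 3559.7 CPM in C15) lie far above the diagonal, fibroblast genes such as Dcn (8918 and 9728 CPM in C18) far below it, and Igfbp4 and Ebf1 on it.

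Pericyte markers were higher in C15 than in C18. Of 19 tested, 17 were higher in C15, none was higher in C18 and 2 were not called, with a median log2 fold change of 4.61. The shares over all genes tested were 17.4% and 19.1%. This list and those below were chosen with earlier results of these data known. Summed over the list, the level was 11282 and 10439 CPM in C15, 390 and 460 CPM in C18, 1753 and 1125 CPM in C19 and 361 and 251 CPM in C14. DESeq2 called 15 of them higher in C15.

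Rgs5, a regulator of G protein signalling that marks pericytes (chr1:169655501-169695813, plus strand, GRCm38), reached 4288 and 3559.7 CPM in C15 and 10.3 and 4.33 CPM in C18. Both mice were thus high in C15 and near 0 in C18, a log2 fold change of 8.68 ± 0.29 (edgeR adjusted p = 3.09e-06). Endothelial C19 cells held 516 and 153 CPM, and Rgs5 had a UMI in 77.6% and 71.9% of C15 cells, 18.3% and 11.8% of C19 cells and 3.87% and 1.92% of C18 cells. Rgs4, its neighbour on the same chromosome (chr1:169741477-169747642, minus strand), stood at 897 and 1215 CPM in C15 and 8.68 and 34.7 CPM in C18 (log2 fold change 5.95 ± 0.36). Notch3, the receptor that mural cells use to read Notch ligands on the endothelium (chr17:32120820-32166852, minus strand), was at 581 and 481 CPM in C15 and 4.73 and 0 CPM in C18. It had a UMI in 77.6% and 77.2% of C15 cells and in 0.704% and 0% of C18 cells, where 0 of 52 cells still allows a share of up to 6.85% by the exact interval.

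Genes of the intermediate filament and the cell surface gave the same picture. Des, the intermediate filament desmin, was at 815 and 921 CPM in C15 and 11 and 21.7 CPM in C18 (log2 fold change 5.82 ± 0.31). Mcam, the adhesion molecule CD146, was at 256 and 352 CPM against 5.52 and 0 CPM (5.70 ± 0.40). Cspg4, the proteoglycan NG2 of the pericyte surface, was at 107 and 129 CPM against 4.73 and 0 CPM (4.61 ± 0.44). In each of the 3 the lower C15 mouse lay at least several times above the higher C18 mouse. Cox4i2 and Ndufa4l2, mitochondrial subunits of a kind made under low oxygen and known from pericytes, were at 668 and 525 CPM and 1656 and 1646 CPM in C15 and at 4.73 and 0 CPM and 48.1 and 39 CPM in C18. Higd1b, a further pericyte gene of the mitochondrion, had 2 UMIs over all C18 cells, which gives a C15 to C18 ratio of 298 (81.7 to 2466). The brackets here and below are the 95% counting interval, which covers counting error only.

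A few pericyte markers differed less between the clusters or were not called. Pdgfrb, the receptor through which endothelial PDGF-B recruits pericytes, was at 231 and 209 CPM in C15 and 84.4 and 104 CPM in C18. C15 was higher in both mice, but by a log2 fold change of only 1.18 ± 0.23 (adjusted p = 0.00365, edgeR), and Pdgfrb had a UMI in 27.1% and 32.7% of C18 cells. Steap4, a metalloreductase, was at 116 and 62.3 CPM against 38.6 and 52 CPM (1.16 ± 0.31). The channel pair of the pericyte was split: Abcc9, the sulfonylurea receptor subunit (chr6:142587862-142702315, minus strand), was at 109 and 66.7 CPM in C15 and 9.46 and 21.7 CPM in C18 (2.94 ± 0.41), whereas Kcnj8, the pore subunit next to it on the chromosome (chr6:142564837-142571614, minus strand), was at 85.4 and 13.3 CPM and 18.1 and 43.3 CPM. Kcnj8 was higher in C15 in mouse 1 and lower in mouse 2, and it was not called (log2 fold change 1.33 ± 0.61, interval -0.05 to 2.71). Anpep, the aminopeptidase CD13, stood at 48.1 and 22.2 CPM in C15 and 64.7 and 91 CPM in C18, with the fibroblasts higher in both mice and no call (adjusted p = 0.0682, edgeR). Other settings called Kcnj8 higher in C15 in 3 cases and Anpep higher in C18 in 4.

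**Figure D3:**
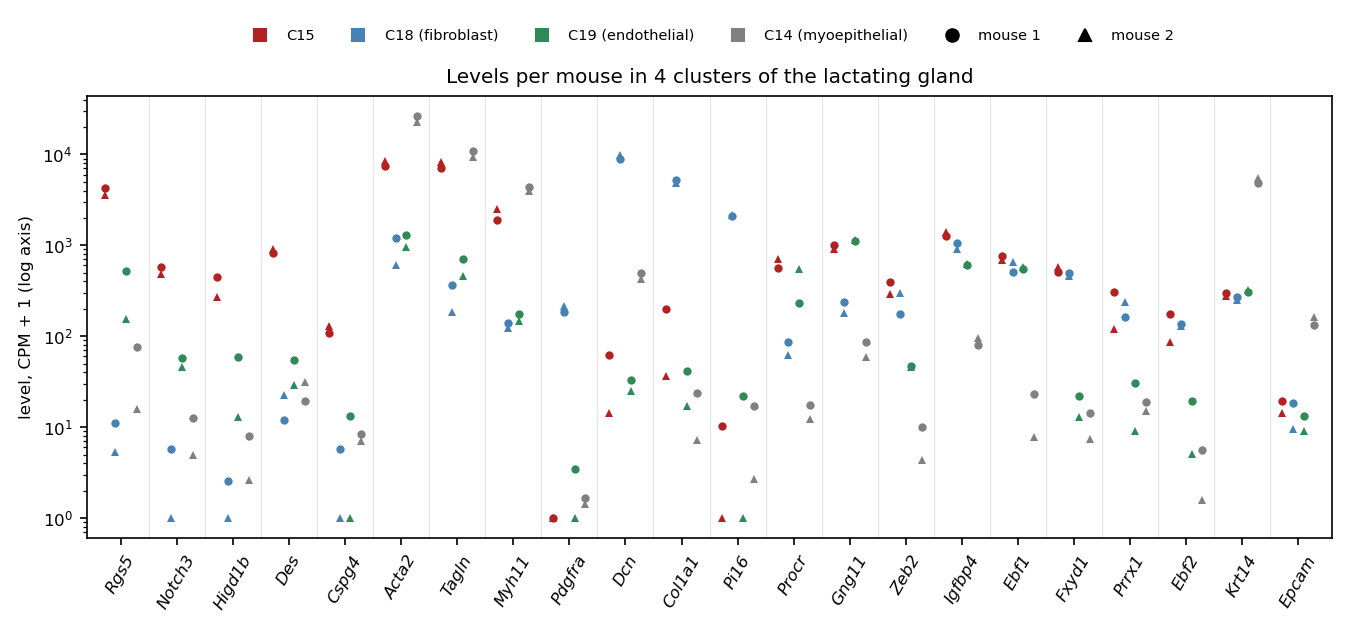
Level of pericyte, contractile, fibroblast, study-named, shared and epithelial genes in C15, C18, C19 (endothelial) and C14 (myoepithelial), in CPM with 1 added on a log axis, with 1 point per mouse. Rgs5 and Notch3 are high in C15 and low in C18 in both mice, Col1a1, Dcn and Pdgfra are high in C18 and low in C15, and Krt14 and Igfbp4 lie close together in the 4 sums of C15 and C18.

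Vascular smooth muscle markers were also higher in C15, in 19 of 21 tested, against 17.4% of all genes tested. None was higher in C18, and the median log2 fold change was 3.78 (DESeq2 called 17). Acta2, smooth muscle actin (chr19:34241090-34255590, minus strand), was at 7376 and 8512 CPM in C15, 1216 and 611 CPM in C18 and 26577 and 22787 CPM in C14. Myh11, the heavy chain of smooth muscle myosin, was at 1899 and 2492 CPM in C15 and 137 and 121 CPM in C18 (log2 fold change 3.88 ± 0.23, edgeR adjusted p = 1.11e-05). Tagln, an actin-binding protein, was at 7013 and 8187 CPM against 366 and 182 CPM (4.65 ± 0.29). In each the 2 mice of a cluster lay closer to each other than to either mouse of the other cluster. Pln, the brake on the calcium pump of the sarcoplasmic reticulum, had no UMI in C18 and stood at 90.04 and 66.7 CPM in C15, at least 42-fold higher against the 3 counts that a count of 0 allows over both mice. Myocd, the coactivator that drives the contractile genes together with the serum response factor (SRF), likewise had no UMI in C18 and was at 54.3 and 57.8 CPM in C15, at least 27.6-fold higher. Srf itself was at 40.4 and 48.9 CPM against 11 and 13 CPM (1.73 ± 0.42). Cnn1 and Actg2 were the members not called, at 297 and 267 CPM and 119.5 and 89 CPM in C15 and 236 and 152 CPM and 87.5 and 60.7 CPM in C18.

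SRF and myocardin act on contractile genes through the CArG box, a short A/T-rich element between CC and GG. The 250 bases before the RefSeq start of each gene were searched for it on both strands, which the symmetry of the element makes 1 search, in its exact form and with at most 1 C or G in the A/T core, a looser form taken up after the exact form had been counted. RefSeq promoters (GRCm38.p6) matched 16 of the 21 smooth muscle markers, and of these 1 (6.25%) held an exact box and 3 (18.8%) a box in the looser form. Among all 27025 promoters the shares were 1.62% and 9.78%, and of 11 fibroblast markers with a promoter 3 (27.3%) and of 13 pericyte markers 0 held the looser form. A match describes these letters and is not a site of binding. The stretches that hold the boxes of the 2 contractile genes shown are given 5′ to 3′ on the gene's own strand because both genes rose in C15, with the boxes in capitals.
Myl9 (chr2:156775278-156775399, plus strand, 186 to 65 bases before the RefSeq start, which lies 44 bases inside the GENCODE gene, the first box exact): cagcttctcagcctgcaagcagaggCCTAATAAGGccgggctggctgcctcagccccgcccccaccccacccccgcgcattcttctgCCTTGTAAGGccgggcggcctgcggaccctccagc
Acta2 (chr19:34255374-34255482, minus strand, 109 to 1 bases before the RefSeq start, which lies 217 bases inside the gene as GENCODE draws it, both boxes in the looser form): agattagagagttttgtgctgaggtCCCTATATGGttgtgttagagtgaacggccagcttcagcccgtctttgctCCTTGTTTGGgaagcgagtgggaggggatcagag
Myl9, the regulatory light chain of myosin, was at 3459 and 4169 CPM in C15 and 327 and 165 CPM in C18 (log2 fold change 3.79 ± 0.30).

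Pericyte and smooth muscle genes were seen in the same C15 cells. Sets of a few markers each, chosen after the files had been seen, were scored by whether a cell held any UMI of the set. The pericyte set was Rgs5, Kcnj8, Abcc9, Higd1b, Notch3 and Ndufa4l2. The smooth muscle set was Myh11, Cnn1, Lmod1, Smtn and Myocd. In C15, Cnn1 lay at the level of the epithelial genes and Smtn was less distinct. Part of the smooth muscle shares can come from these genes, and how much was not tested. With each cell thinned to 1000 UMIs, 79.0% and 82.5% of C15 cells held UMIs of both sets, 13.2% and 10.5% of the pericyte set only and 7.32% and 7.02% of the smooth muscle set only. Taken singly, the pericyte set was in 92.2% and 93.0% of C15 cells and the smooth muscle set in 86.3% and 89.5%. Of C18 cells, 1.76% and 0% held both, with the pericyte set in 5.28% and 5.77% and the smooth muscle set in 34.15% and 28.85%. Whether the sets occur together beyond their single shares was not tested. With all UMIs, which favour the deeper cells, 95.6% and 100% of C15 cells held both. The smooth muscle set alone does not tell the clusters apart at full depth, since it had a UMI in 76.4% and 75.0% of C18 cells and in 78.5% and 80.4% of C19 cells. Endothelial genes had a UMI in 7.32% and 3.51% of C15 cells and 7.04% and 1.92% of C18 cells, and in all C19 cells of both mice.

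Fibroblast markers were higher in C18 without exception, in 23 of 23 tested, with a median log2 fold change of -6.17 (DESeq2 called 22). Of all genes tested, 19.1% were higher in C18. The study labelled C18 as fibroblasts by its collagens and fibronectin, so that a rise of such genes in C18 follows from the label. Over the list the level was 61469 and 65979 CPM in C18 and 3585 and 1709 CPM in C15, and in C19 it was 2505 and 2834 CPM, between the 2 C15 sums. Pdgfra, the PDGF receptor that defines most tissue fibroblasts (chr5:75152292-75198215, plus strand), had no UMI in any of the 262 C15 cells and stood at 185 and 212 CPM in C18. It was at least 54.9-fold higher in C18, and it had a UMI in 47.2% and 59.6% of C18 cells, while 0 of 205 C15 cells in mouse 1 allows a share of up to 1.78% by the exact interval. Dcn, the collagen-binding proteoglycan decorin (chr10:97479609-97518143, plus strand), was at 60.5 and 13.3 CPM in C15 and 8918 and 9728 CPM in C18 (log2 fold change -7.88 ± 0.37, edgeR adjusted p = 8.26e-06). Lum, the related proteoglycan lumican, was at 9.31 and 0 CPM against 1897 and 2311 CPM (-8.31 ± 0.41). Gsn, the actin-severing protein gelsolin, was among the highest fibroblast genes, at 10551 and 14722 CPM in C18 and 1466 and 1063 CPM in C15 (-3.43 ± 0.23).

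The fibrillar and associated collagens fell in C15 as a group, with 13 of 14 tested higher in C18 and none higher in C15. Their median log2 fold change was -2.60. Collagens were among the genes by which the study labelled C18. Col1a1 was at 200.3 and 35.6 CPM in C15 and 5176 and 4847 CPM in C18 (-5.54 ± 0.42), and Col3a1 at 741 and 151 CPM against 8026 and 8085 CPM (-4.51 ± 0.45). C15 of mouse 1 held more of both than C15 of mouse 2, by several times, while the C18 sums of the 2 mice were close. Proteoglycans and elastic fibre genes went the same way, with 20 of 23 higher in C18 (median -3.81) and 2 higher in C15 (DESeq2 17 and 1). Elastin (Eln) was at 497 and 458 CPM in C15 and 1536 and 1695 CPM in C18 (-1.87 ± 0.19), and biglycan (Bgn) at 1102 and 926 CPM against 2213 and 2007 CPM (-1.18 ± 0.17), both well above zero in C15. Aspn, the small leucine-rich proteoglycan asporin, was the opposite, at 925 and 694 CPM in C15 and 286 and 316 CPM in C18 (1.33 ± 0.22). Efemp1, the elastic fibre protein fibulin-3, ranked first among the called genes that were lower in C15, with no UMI there and 443 and 637 CPM in C18, at least 137-fold higher.

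Basement membrane genes were divided, with 6 of 14 tested higher in C15 and 7 higher in C18 (median log2 fold change -0.14, DESeq2 2 and 4). The shares over all genes tested were 17.4% and 19.1%. Both chains of the main type IV collagen were higher in C15, Col4a1 at 1059 and 881 CPM against 577 and 473 CPM (0.76 ± 0.19) and Col4a2 at 647 and 441 CPM against 377 and 234 CPM (0.70 ± 0.21). Col18a1, the collagen from which endostatin is cut, was at 349 and 360.4 CPM against 78.9 and 47.7 CPM (2.22 ± 0.26). The laminin alpha chains were exchanged: Lama5 had 3 UMIs in C18 and 66.8 and 133 CPM in C15, a ratio of 42 (13.8 to 208), whereas Lama2 was at 15.5 and 0 CPM in C15 and 159 and 182 CPM in C18 (-3.97 ± 0.45). Nid1, the linker nidogen, was at 186 and 93.4 CPM in C15 and 780.1 and 910.3 CPM in C18 (-2.64 ± 0.29). Sparc, a collagen-binding protein of the matrix, was among the most abundant transcripts of both clusters, at 6478 and 4303 CPM in C15 and 18323 and 14990.4 CPM in C18 (-1.77 ± 0.14).

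Integrins, the receptors that hold cells to this matrix, were higher in C15 in 5 of 8 tested and higher in C18 in none (median 2.30). Itga7, a laminin receptor of muscle, was at 146 and 182 CPM against 3.15 and 8.67 CPM (5.02 ± 0.38). Itga1, which with Itgb1 binds collagen, was at 166 and 169 CPM against 11 and 4.33 CPM (3.92 ± 0.33), and Itgb1 at 1556 and 1446 CPM against 491 and 394 CPM (1.63 ± 0.19). Itga4 had 3 UMIs in C18, a C15 to C18 ratio of 44.8 (14.8 to 222). Matrix proteases and their inhibitors were mostly on the C18 side, with 14 of 21 higher there (median -2.0) and 3 higher in C15. Mmp14, the membrane-bound collagenase, was at 71.4 and 62.3 CPM in C15 and 232 and 295 CPM in C18 (-2.0 ± 0.25), whereas the inhibitor Timp4 had 1 UMI in C18 and was at 206 and 311 CPM in C15, a ratio of 350.1 (62.1 to 13896). Adamts4, an aggrecan-cleaving protease, was at 289 and 392 CPM in C15 and 18.9 and 13 CPM in C18 (3.98 ± 0.29).

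**Figure D4:**
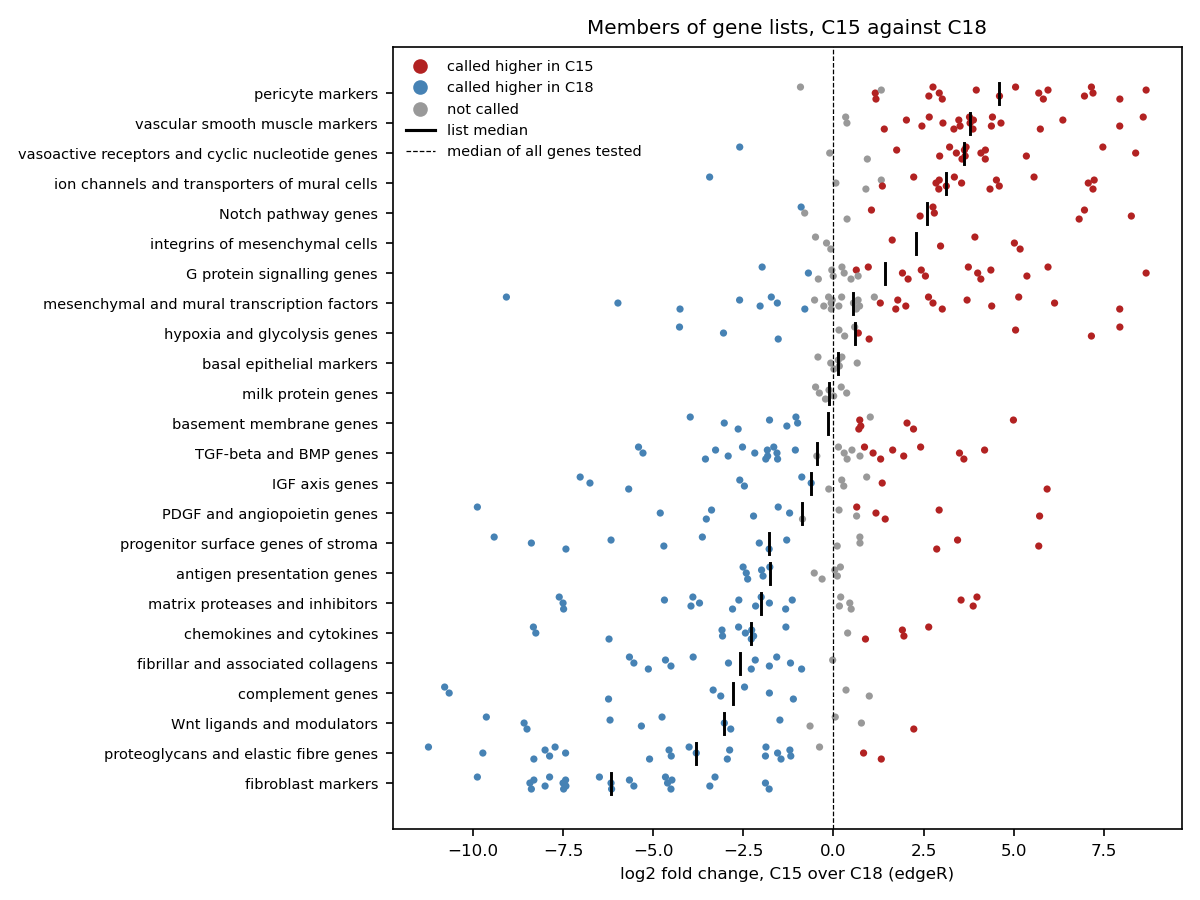
Log2 fold change between C15 and C18 (horizontal, positive where C15 was higher) for the tested genes of each list, with 1 point per gene, a bar at the list's median and a broken line at the median of all genes tested. For genes without a UMI in 1 cluster the fitted value depends on a prior count. Pericyte and smooth muscle markers lie on the right (medians 4.61 and 3.78), fibroblast markers on the left (median -6.17), and basal epithelial and milk protein genes at 0 (medians 0.13 and -0.12).

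The genes with the largest rise in C15 had few or no UMIs in C18. The leading 6 of the 15 ranked were Gm13861, Tesc, Adap2, Olfr78, Fry and Ephx3, all without a UMI in C18. Tesc, a calcium-binding protein, was at 146 and 258 CPM in C15, at least 87.4-fold higher, and Adap2, a GTPase-activating protein, at 139.7 and 142 CPM, at least 70.1-fold higher. Olfr78, an olfactory receptor that is also known from vascular smooth muscle, was at 110.2 and 102 CPM in C15, at least 54-fold higher, and had no UMI in C19 either. Olfr558, of the same receptor family, had 1 UMI in C18 and 286 and 347 CPM in C15, a ratio of 452 (80.4 to 17915). P2rx1, the ATP-gated channel of smooth muscle, was at 297 and 436 CPM in C15 with 1 UMI in C18, a ratio of 498 (88.8 to 19754). Nrip2, a nuclear receptor interacting protein, had 2 UMIs in C18 and 393 and 467 CPM in C15, a ratio of 309 (84.8 to 2559). Both mice had each of these genes well above 0 in C15.

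On the C18 side, the leading 15 genes had no UMI in C15. Besides Efemp1 and Pdgfra they included C3, the central complement protein, at 324 and 468 CPM in C18 (at least 100.3-fold higher) and Cd55, a membrane brake on complement, at 294 and 438 CPM (at least 91.6-fold higher). Cthrc1, a secreted protein of collagen-making cells, was at 297 and 199 CPM (at least 81.6-fold higher), and Vcan, the large proteoglycan versican, at 174 and 169 CPM (at least 50.3-fold higher). Crabp1, a retinoic acid-binding protein, was at 302 and 86.7 CPM (at least 77.9-fold higher), with the 2 mice several times apart. Dpp4, the surface peptidase CD26, was at 133 and 156 CPM (at least 39.6-fold higher) and had a UMI in 34.1% and 38.5% of C18 cells. Pi16, which with Dpp4 marks fibroblasts around vessels and fascia in many tissues, was at 2084 and 2146 CPM in C18 and 9.31 and 0 CPM in C15 (-8.38 ± 0.40). The remaining ones were Cpxm1, Akr1c18, Itgbl1, Hsd11b1, Sfrp4, Smpd3 and Hmcn1, at least 60.1-fold to 33.8-fold higher in C18.

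Genes shared by C15 and C18 were picked by level: an interval of the difference within a factor of 2, at least 20 CPM in both clusters of each mouse and at least 4 times the C14 level in both. There were 23 of these (0.403% of genes tested), against 281 (4.92%) on the C15 side and 402 (7.04%) on the C18 side by the matching rule with a log2 difference of at least 1. The choice used the levels and their spread, so that the values below are a description.

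Igfbp4, an IGF-binding protein (chr11:99041244-99054392, plus strand), led the shared genes at 1256 and 1393 CPM in C15 and 1069.5 and 910.3 CPM in C18. Basal C14 cells held 79.1 and 95 CPM, and the interval of the log2 difference between C15 and C18 was -0.15 to 0.72. C19 cells held 613 and 621 CPM. Ebf1, a transcription factor known from adipocyte precursors and B cells, was at 761 and 694 CPM in C15 and 506 and 659 CPM in C18 (interval -0.25 to 0.70), and C19 at 554 and 577 CPM was as high. Fxyd1, the phospholemman that regulates the sodium pump, was at 509 and 583 CPM in C15 and 493 and 459.5 CPM in C18 (interval -0.42 to 0.52), whereas C19 held 21 and 12.1 CPM and C14 13.3 and 6.44 CPM. The 3 genes therefore differed in how far endothelial cells joined in.

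Among the 23 shared genes, 10 were also at least 4 times above C19 in both mice. Among them were Fxyd1, Prrx1, Ebf2, Meis2, C1qtnf2, Hoxc8, Pid1 and Hoxc9. Prrx1, a homeobox factor of mesenchyme, was at 306 and 120.1 CPM in C15 and 161 and 238 CPM in C18, with C15 the higher in mouse 1 and C18 the higher in mouse 2 (interval -0.70 to 1.00). Ebf2 was at 175 and 84.5 CPM against 136 and 130.1 CPM (interval -0.63 to 0.56). Hoxc8 and Hoxc9, position genes of the trunk, were at 76.1 and 48.9 CPM and 51.2 and 53.4 CPM in C15 and at 58.4 and 60.7 CPM and 40.2 and 39 CPM in C18, on few UMIs.

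The remaining 13 shared genes did not stand 4 times above C19 in both mice. Csrp2, a LIM protein of muscle, was at 359 and 409 CPM in C15, 313 and 364 CPM in C18 and 219 and 387 CPM in C19. Akap12, an anchor for protein kinase A, was at 165 and 249 CPM in C15 and 170.4 and 299 CPM in C18 but 635 and 1173 CPM in C19, and Nrp1, a co-receptor for VEGF and semaphorins, was at 199 and 120.1 CPM, 155 and 113 CPM and 687 and 468 CPM. Atf5, a stress-response transcription factor, was at 168 and 174 CPM in C15 and 219 and 212 CPM in C18 (interval -0.97 to 0.01). The others were Zeb1, Sfxn1, Mndal, Iah1, Cyth3, Pcdh19 and Glipr2, and with Igfbp4 and Ebf1 they make up the 13. All 23 kept a log2 difference under 1 with DESeq2, but its wider intervals placed only 2 of them within a factor of 2. After thinning to 1000 UMIs, 15 of the 23 could be tested and 9 had an interval within a factor of 2. In 1 fit over 7 clusters 16 of the 23 did.

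Of the 281 genes on the C15 side, 143 were at least 4 times above C19 in both mice and 138 were not, so that the C15 side divided about evenly between genes that stood well above the endothelial cluster and genes that did not. Among the 143 were Rgs5, Ndufa4l2, Des, Cox4i2, Rgs4, Mustn1 and Aspn. Among the 138 was Fabp4, the fatty acid carrier of adipocytes and capillary endothelium, at 4260.0 and 4828 CPM in C15, 82 and 147 CPM in C18 and 17594 and 12374 CPM in C19. Esam, an adhesion molecule of endothelial junctions that pericytes also make, was at 242 and 294 CPM in C15, 5.52 and 0 CPM in C18 and 828 and 601 CPM in C19. Of 15 endothelial markers 4 could be tested, with Esam higher in C15 and Tek higher in C18. Summed over the list, Esam included, the level was 487 and 467 CPM in C15, 146 and 104 CPM in C18 and 10253 and 9451 CPM in C19. The defining markers Pecam1 and Cdh5 were at 18.6 and 26.7 CPM and 17.1 and 4.45 CPM in C15, against 1179.5 and 988 CPM and 1003 and 911 CPM in C19. Acta2 and the other 7 contractile genes set against C14 above are not in this class, which asks for at least 4 times the C14 level.

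Procr, the protein C receptor after which the cluster was named (chr2:155751117-155755471, plus strand), was at 562 and 707 CPM in C15 and 84.4 and 60.7 CPM in C18, a log2 fold change of 2.87 ± 0.27 (edgeR adjusted p = 6.49e-05). C19 held 234 and 552 CPM, and C14 16.5 and 11.3 CPM. It had a UMI in 66.3% (interval 59.4 to 72.8) and 77.2% (64.2 to 87.3) of C15 cells, 40.8% and 54.9% of C19 cells, 25.4% and 19.2% of C18 cells and 4.36% and 3.45% of C14 cells. Procr, Gng11, Notch3, Des, Cspg4, Igfbp4 and Zeb2 are names given to C15 in the original work, Des and Cspg4 among them as pericyte markers. Some of them, such as Procr, Des and Cspg4, are markers from earlier work. All 7 were named for C15 from these same cells and are thus no independent evidence. All but Igfbp4 and Zeb2 were called higher in C15 than in C18, 5 of 7. Gng11, a G protein gamma subunit, was at 1006 and 908 CPM in C15, 235 and 178 CPM in C18 and 1105 and 1133 CPM in C19. Zeb2, a repressor of epithelial genes, was at 397 and 294 CPM in C15 and 176 and 299 CPM in C18 (log2 fold change 0.56 ± 0.29, interval -0.11 to 1.22). The C15 mice lay on either side of the higher C18 mouse, and C19 stood at 45.8 and 44.3 CPM.

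Genes that set vessel tone were strongly on the C15 side. Of 17 vasoactive receptors and cyclic nucleotide genes tested, 14 were higher in C15 and 1 in C18 (median log2 fold change 3.64, DESeq2 13 and 0). Gucy1a3 and Gucy1b3, the paired subunits of the nitric oxide receptor, were at 691 and 694 CPM and 338 and 263 CPM in C15 and 13.4 and 21.7 CPM and 15.8 and 21.7 CPM in C18. Both subunits were high in both C15 sums and low in both C18 sums. The phosphodiesterases Pde3a and Pde5a, which break down the cyclic nucleotides, were at 319.8 and 365 CPM and 96.3 and 75.6 CPM in C15 (3.41 ± 0.27 and 3.64 ± 0.39 as log2 fold changes). Ednra, the endothelin receptor of smooth muscle, was at 124 and 84.5 CPM against 15.8 and 4.33 CPM (2.95 ± 0.32), and the vasopressin receptor Avpr1a at 76.1 and 66.7 CPM against 2.37 and 8.67 CPM (4.21 ± 0.53). Npr1, a receptor for natriuretic peptides, was the member higher in C18, at 9.31 and 8.90 CPM in C15 and 48.9 and 60.7 CPM in C18 (-2.60 ± 0.44).

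Ion channels and transporters known from mural cells were higher in C15 in 15 of 19 tested and higher in C18 in 1 (median 3.13, DESeq2 11 and 1). Kcnk3, a background potassium channel, had 1 UMI in C18 against 132 and 205 CPM in C15, a ratio of 226 (39.8 to 8991). Atp1b2, a beta subunit of the sodium pump, was at 241 and 289 CPM against 10.3 and 4.33 CPM (4.60 ± 0.33). The connexins were exchanged between the clusters. Gja4 had 3 UMIs in C18 and 352 and 356 CPM in C15, a ratio of 176 (59.8 to 861), and Gjc1 was at 248 and 334 CPM against 23.7 and 8.67 CPM (3.56 ± 0.33), whereas Gja1, a connexin of many fibroblasts, was at 17.1 and 40.05 CPM in C15 and 230.3 and 247 CPM in C18 (-3.44 ± 0.32). G protein signalling genes were higher in C15 in 13 of 22 tested and higher in C18 in 2 (median 1.44, DESeq2 8 and 0).

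Ligands and receptors of the vessel wall were divided between the clusters. Of 15 PDGF, angiopoietin and related genes tested, 5 were higher in C15 and 7 in C18 (median -0.86, DESeq2 2 and 4). All genes tested gave 17.4% and 19.1%. With cells thinned to 1000 UMIs, 9 of the 15 could be tested and the median was 0.13. The ligand Pdgfa was at 691 and 868 CPM in C15 and 15.8 and 0 CPM in C18 (5.72 ± 0.43), while its receptor Pdgfra was on the C18 side alone. Angpt2 and Angpt1, ligands of the endothelial receptor Tek, were at 152 and 120.1 CPM and 90.04 and 48.9 CPM in C15 and 20.5 and 4.33 CPM and 23.7 and 39 CPM in C18, with both C15 mice above both C18 mice for each. Tek itself was at 4.66 and 4.45 CPM in C15 and 46.5 and 43.3 CPM in C18 (-3.38 ± 0.53). In the Notch pathway, 7 of 10 genes tested were higher in C15 and 1 in C18 (median 2.58, DESeq2 5 and 0). The target and feedback inhibitor Nrarp was at 475 and 676 CPM in C15 and 4.73 and 0 CPM in C18 (6.82 ± 0.42), the ligand Jag1 at 220.5 and 298 CPM against 36.3 and 56.4 CPM (2.40 ± 0.24), and the target Heyl at 163 and 205 CPM against 26.8 and 8.67 CPM (2.76 ± 0.33). Hey2, a further target, had no UMI in C18 and 69.9 and 62.3 CPM in C15, at least 33.9-fold higher. Rbpj, the DNA-binding partner of Notch, was the gene higher in C18, at 52.8 and 44.5 CPM in C15 and 78.1 and 108 CPM in C18 (-0.90 ± 0.28).

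Of 13 genes of the Wnt list tested, 9 were higher in C18 and 1 in C15 (median -3.03), and DESeq2 called 5 and 1. Sfrp2, a secreted Wnt-binding protein, had 2 UMIs in C15 and 765 and 1058 CPM in C18, a C18 to C15 ratio of 352 (97.2 to 2909). Wnt2 had no UMI in C15 and 67.8 and 108 CPM in C18, at least 21.5-fold higher. Fzd4, a Wnt receptor, was the member higher in C15, at 104 and 107 CPM against 16.6 and 34.7 CPM (2.23 ± 0.32). The 2 insulin-like growth factors were on opposite sides: Igf1 was at 7.76 and 13.3 CPM in C15 and 390.4 and 594 CPM in C18 (-5.68 ± 0.33), and Igf2 had 3 UMIs in C18 and 137 and 209 CPM in C15, a ratio of 77.6 (26 to 381). Their binding proteins were spread over all outcomes, with Igfbp7 at 7897 and 7555 CPM against 3097 and 2475 CPM (1.35 ± 0.16), Igfbp4 shared, and Igfbp6 at 32.6 and 0 CPM against 2762 and 2233 CPM (-7.03 ± 0.44). Of 29 TGF-beta and BMP genes tested, 9 were higher in C15 and 14 in C18 (median -0.46, DESeq2 4 and 8). All genes tested gave 17.4% and 19.1%. Id1, a target of BMP signals, was at 425 and 374 CPM against 56.8 and 99.7 CPM (2.42 ± 0.28), and the receptor Tgfbr2 at 43.5 and 40.05 CPM against 421 and 286 CPM (-3.27 ± 0.27).

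Among 33 transcription factors tested, 12 were higher in C15 and 8 in C18 (median 0.56, DESeq2 8 and 4), and 8 had an interval within a factor of 2. The shares over all genes tested were 17.4%, 19.1% and 25.4%, so that the counts for C18 and for the factor of 2 lay near them. Mef2c, a muscle transcription factor, was at 914 and 970.0 CPM in C15 and 55.2 and 86.7 CPM in C18 (3.71 ± 0.25), and Epas1, the hypoxia-inducible factor HIF-2 alpha, at 543 and 521 CPM against 23.7 and 21.7 CPM (4.39 ± 0.27). Tbx2 was at 130.4 and 160.2 CPM against 3.94 and 0 CPM (5.14 ± 0.43), and Foxs1, a forkhead factor of pericytes, at 139.7 and 218 CPM against 20.5 and 4.33 CPM (3.02 ± 0.38). Tcf15 had 3 UMIs in C18, a ratio of 85.1 (28.6 to 417). Osr1 and Osr2, zinc-finger factors of connective tissue, were on the C18 side, Osr1 at 9.31 and 8.90 CPM in C15 and 167 and 156 CPM in C18 (-4.26 ± 0.34) and Osr2 with 2 UMIs in C15, a C18 to C15 ratio of 60.01 (16.4 to 499). Prrx2 had no UMI in C15 and was at least 31.9-fold higher in C18, unlike the shared Prrx1. Klf4 was at 382 and 467 CPM in C15 and 1061 and 1218 CPM in C18 (-1.56 ± 0.19).

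Immune mediators were mostly higher in C18. Of 16 chemokines and cytokines tested, 11 were higher in C18 and 4 in C15 (median -2.27, DESeq2 7 and 2), and of 10 complement genes 8 were higher in C18 and none in C15 (median -2.80, DESeq2 5 and 0). Il6 was among those higher in C15, at 517 and 556 CPM against 52.1 and 139 CPM (2.64 ± 0.32). Cxcl12, a chemokine that retains leukocytes and blood progenitors, was at 188 and 89 CPM in C15 and 659 and 815 CPM in C18 (-2.44 ± 0.31). Ccl2, which draws monocytes, was at 329 and 62.3 CPM in C15 and 581 and 1457 CPM in C18 (-2.27 ± 0.63, edgeR adjusted p = 0.0205), with wide gaps between the mice in both clusters. Antigen presentation genes were higher in C18 in 6 of 11 tested and in C15 in none (median -1.77), with B2m at 742 and 556 CPM against 2749 and 3537 CPM (-2.38 ± 0.22). Immune markers themselves gave 2 testable genes of 13, with none higher in C15 and 1 higher in C18 (DESeq2 0 and 0).

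Surface genes used to sort stromal progenitors were mostly on the C18 side, with 9 of 15 tested higher in C18 and 3 in C15. Their median was -1.78, and DESeq2 called 6 and 3. All genes tested gave 19.1% and 17.4%, so that the count for C15 lay near its share. Cd34 had 3 UMIs in C15 and 578 and 577 CPM in C18, a C18 to C15 ratio of 167 (57.1 to 813). Ly6a, the antigen Sca-1, was at 23.3 and 35.6 CPM in C15 and 1889 and 1665 CPM in C18 (-6.17 ± 0.29), and Thy1 at 284 and 138 CPM against 805 and 520.2 CPM (-1.78 ± 0.22). Thus Procr and Mcam rose in C15 while Cd34, Ly6a and Thy1 fell. Of 22 dissociation stress genes, 3 were higher in C15 and 6 in C18 (DESeq2 2 and 2), against 36.5% of all genes called in either direction, with 14 within a factor of 2 and a median of -0.01. Of 8 cell division genes tested, 2 were higher in C15 and none in C18, against 17.4% and 19.1% of all genes tested. DESeq2 and glmTreat, the test for a fold change above 2, called 0, and 6 of 7 were higher in C15 once cells above 2 median UMI totals were left out, so that this count turned on the setting. Mki67 was at 43.5 and 48.9 CPM against 11 and 0 CPM (2.17 ± 0.55).

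C15 cells were split by whether they held a UMI of collagen genes that separate the clusters. Sampling at low depth can part cells of equal content in this way, and whether C15 cells differ beyond it was not tested. With each cell thinned to 1000 UMIs, 91 of 205 C15 cells in mouse 1 and 15 of 57 in mouse 2 held a UMI of Col1a1, Col1a2 or Col3a1. This split of single cells and the genes set beside it were chosen after the values had been seen, and the values are given with no test. In mouse 1, the cells with a collagen UMI held more Ccl2 (615 against 8.77 CPM), Ccl11 (429 against 52.6 CPM), Kcnj8 (121 against 17.5 CPM), Abcc9 (187 against 70.2 CPM) and Higd1b (659 against 316 CPM). The same cells held less Myh11 (1253 against 2570 CPM) and Pln (65.9 against 158 CPM), and Rgs5 was high on both sides (4901 against 4026 CPM). Notch3 was at 582 against 465 CPM. Pdgfra stayed without a UMI in either, and Dcn was at 98.9 against 52.6 CPM.

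In mouse 2 the 15 cells with a collagen UMI gave 1733 CPM of Myh11 against 2738 CPM in the other 42, in the direction of mouse 1. For Ccl2 (0 against 119 CPM), Kcnj8 (0 against 23.8 CPM), Abcc9 (66.7 against 95.2 CPM) and Pln (133 against 119 CPM) the order was the reverse of mouse 1, at a depth where 1 UMI in the 15 cells is 66.7 CPM. Notch3 was reversed as well (133 against 667 CPM), and Higd1b was nearly equal (267 against 262 CPM). A test of whether the 2 mice differ was not made, and mouse 2 rests on 15 cells with a collagen UMI. Whether the collagen UMIs are the cells' own or free RNA of fibroblasts was not tested.

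**Figure D5:**
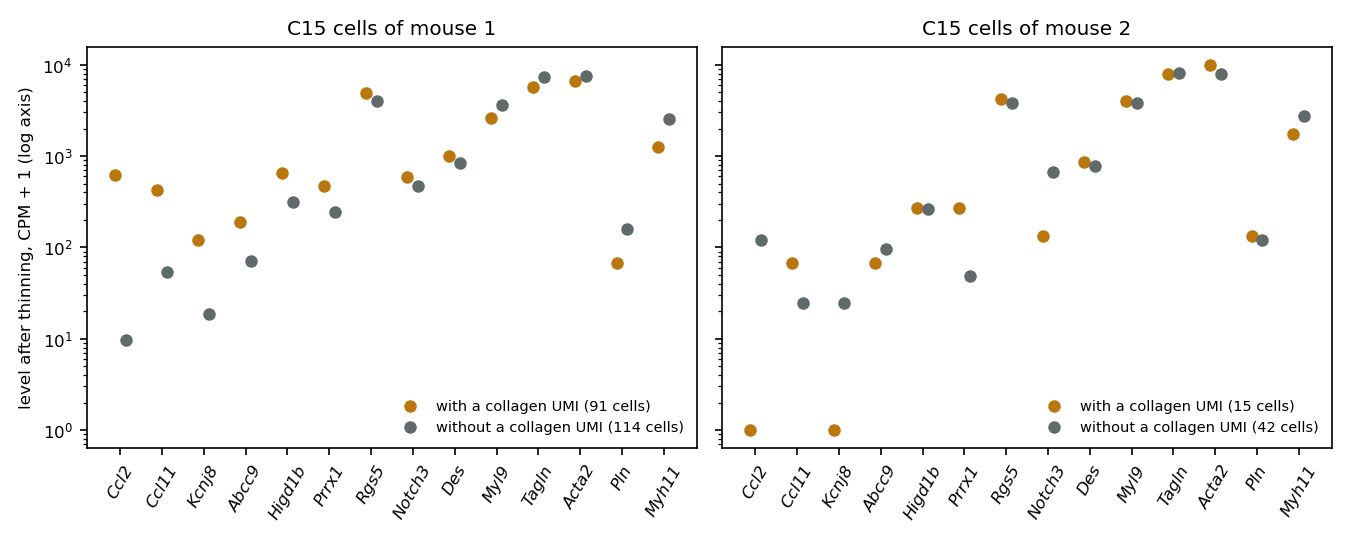
Level, in CPM with 1 added on a log axis, of mural, contractile and chemokine genes in C15 cells with and without a collagen UMI (Col1a1, Col1a2 or Col3a1) after thinning to 1000 UMIs per cell, for each mouse. In mouse 1, Ccl2 stood at 615 against 8.77 CPM and Myh11 at 1253 against 2570 CPM, and mouse 2 rests on 15 cells with a collagen UMI.

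C18 was also present at the other stages, and its levels there are set beside those of L. Acta2 in C18 was at 43.3 and 24.98 CPM in NP, 177 and 233 CPM in G and 87.0 CPM in the PI mouse with enough cells, against 1216 and 611 CPM in L. Krt14 in C18 was at 28.9 and 28.1 CPM in NP, 22.6 and 73.1 CPM in G and 0 in PI, against 268 and 251 CPM in L, so that both were highest in C18 of L mice. The leading shared genes were present in C18 at every stage. Outside lactation Ebf1 ran from 421 to 686 CPM, a range that holds both L values, and Fxyd1 from 266 to 362 CPM, below both L values. Igfbp4 was at 361 and 665 CPM in NP and 2382 and 2878 CPM in G, and the L values lay between those of NP and G. Rgs5 had no UMI in C18 of NP and G mice and was at 36.3 CPM in PI. Procr in C18 ran from 33.2 to 421 CPM over the stages outside lactation. Cell numbers and stage differ together here, and no test between stages was made.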

How the data were processed

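Droplet single-cell RNA-seq of sorted mammary cells was used. The deposited matrices are raw UMI counts of each gene in each barcode. Cell Ranger, run by the authors on the mm10 build, produced them with no scaling between libraries, and the submitters' processing notes name STAR. The deposited annotation of the authors gives each cell's library, quality flags and cluster, and clusters were not made again. Doublets were not called here. Members and gene lists were chosen with earlier results of these data known.

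Counts of C15, C18, C14 and C19 cells were summed per mouse. Replicate numbers pair the sums, since C15 and C18 of a library are cells of the same mouse. Genes were tested with edgeR 4.0.16 in R 4.3.3 (TMM, filterByExpr with a minimum count of 10 and total of 15, library block, quasi-likelihood F-test, Benjamini-Hochberg at 0.05, 1 residual and 7.64 prior degrees of freedom). DESeq2 1.42.0 was an alternative. Named genes were the 15 largest rises and falls among called genes of at least 50 CPM with the same direction in both mice, the 10 highest shared genes, the study's C15 genes, and members of 32 lists. Ifitm1 and the genes set beside the collagen split were picked after their values were seen. Positions are GENCODE M21 (GRCm38). Of the 27998 genes, 56 symbols with more than 1 identifier were not named. Floors are 3 counts, and exact binomial intervals cover counting error at 95%. The test was tried on simulated data. The other tools were Python 3.11.15, numpy 2.4.6, scipy 1.17.1, pandas 2.3.3 and matplotlib 3.10.9. Some genes that the rule for named genes selects are not reported here.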

Additional observations from a re-analysis of the deposited data

How the results depend on the processing

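Against 994 genes called higher in C15, 1092 higher in C18 and 1450 within a factor of 2, the test for a fold change above 2 (glmTreat) called 479 and 518, cells thinned to 1000 UMIs gave 455, 540 and 410 among 2336 genes tested, and DESeq2 gave 390, 435 and 69. DESeq2 kept 825 of the 2086 calls. The cause of its lower counts was not tested. Without the replicate block the counts were 1077, 1148 and 1459, and the pairing of the sums by mouse thus moved no count by more than 1.5 times. No filter on low counts, the filter of the study (a mean of 0.1 UMIs per cell), equal cell numbers, leaving out cells above 2 median UMI totals, leaving out milk protein genes and 1 fit over 7 clusters all kept these 3 counts within 1.5 times. Asking for 2 rather than 4 times the C14 level gave 61 shared genes in place of 23 and 448 genes on the C15 side in place of 281. Of the 281, DESeq2 called 195 and glmTreat 238. No named or listed gene reversed its call, while 2 of the 1194 genes called over the whole table and tested after thinning changed sign. DESeq2 left 100 named or listed genes without a call, glmTreat 66, 1 fit over 7 clusters 14, thinning 13 and no filter 4. These counts leave out genes that a setting could not test, and thinning tested only 1194 of the 2086 called genes. Calls were gained for 11 genes when cells above 2 median UMI totals were left out, for 10 with the filter of the study and for 9 with equal cell numbers. Thinning also lowered shares of cells with a UMI, to 38.05% and 43.9% of C15 cells for Procr. With 1 mouse left out no test can be made, so no count is given, and the log2 ratio of the remaining mouse stood in its place. Depth limits the low genes most: 75 tested genes had no UMI in 1 cluster, and the second mouse gave 57 C15 and 52 C18 cells.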
